A study of Mus musculus with 2 samples.

Results

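The SOCS family comprises 8 genes in the mouse, Socs1 to Socs7 and Cish, and these were chosen by symbol from the annotated genes. All 8 were found, out of 55450 annotated genes in the gene tables. Their messenger RNA levels come from polyA plus RNA-seq of macrophages grown from C57BL/6J mouse bone marrow, which are primary phagocytic cells and not a cell line. There are 2 libraries in 1 group, labelled as biological replicates 1 and 2. The cells had received 100 ng/ml of lipid A for 12 h, were then kept without it for 12 h, and received 100 ng/ml of lipid A again for 120 min. Lipid A, the lipid portion of the endotoxin of Gram-negative bacteria, is sensed by TLR4. The description of the experiment names lipid A, while other label fields name lipoprotein A. The donor identifier is the same for the 2 libraries and separate animals are not stated, so part of their spread may be technical. No untreated or singly treated cells were analysed here, so the values are levels after the second exposure and not responses to it.

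SOCS proteins are inhibitors of cytokine signalling. A cytokine receptor activates JAK kinases, which phosphorylate the receptor and STAT transcription factors, and STAT factors then switch on target genes that include several SOCS genes. Each SOCS protein has an SH2 domain that binds phosphorylated tyrosines and a C-terminal SOCS box that binds elongin B and elongin C and recruits cullin 5, which leads to ubiquitination of bound proteins. SOCS1 and SOCS3 also block JAK kinase activity directly. In macrophages, SOCS1 is known for restraining interferon and lipopolysaccharide responses, and SOCS3 for limiting signalling through gp130, the shared chain of the IL-6 receptors.

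Total expected counts were 45335936 reads in replicate 1 and 32085270 reads in replicate 2, so that 3 reads corresponded to 0.0662 and 0.0935 CPM, which are counts scaled to the library total. All 10 macrophage markers examined, including Adgre1, Csf1r and Cd68, were at 10 TPM or more in both libraries (TPM are transcript levels corrected for length and scaled to a common total). Most markers of other cell types were scarce: of 86 entries in 8 lists, 64 had less than 1 TPM in each library. Among protein-coding genes 11737 of 21951 did. Some markers were not scarce. The highest of their lists were Pf4 (271 and 95.2 TPM), Csf3r (118 and 159 TPM), Cd22 (68.6 and 48.5 TPM) and Cd4 (52.2 and 59.8 TPM). The NK cell, dendritic cell, mast cell and basophil, and stromal lists had no gene at 10 TPM or more in both libraries. Some markers differed between the libraries. The neutrophil list summed to 285 TPM in replicate 1 and 216 TPM in replicate 2, with 6 of its 15 genes at 1 TPM or more in both, and Ly6g and Retnlg were listed at 0 in both. Within that list S100a9 was at 26.4 TPM in replicate 1 and 1.18 TPM in replicate 2, while Csf3r, its highest gene, went the other way in TPM. In bulk RNA, fewer cells of a type and less RNA per cell cannot be told apart.

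Macrophages stimulated again with lipid A carried Socs3 messenger RNA far above that of every other family member. Socs3, Socs6, Socs7, Socs4, Socs5, Socs1, Cish and Socs2 followed each other in mean TPM, with a 425-fold distance between the highest and the lowest mean. A level of at least 1 TPM in both libraries was reached by 7 of the 8 members, all but Socs2, where 44.5% of 21951 protein-coding genes reached it. A level of at least 10 TPM in both was reached by 2 of 8, Socs3 and Socs6, against 27.3% of protein-coding genes. The median member had a mean log2(TPM + 1) of 2.80, against 0.39 for all protein-coding genes.

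**Figure D1:**
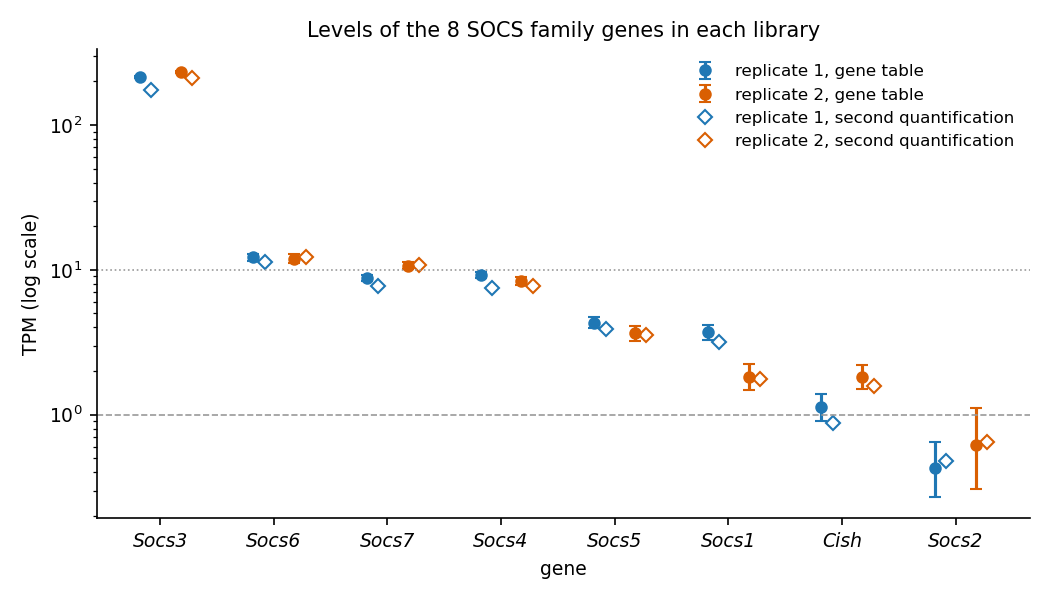
TPM of each family member on a log axis, with replicate 1 left of replicate 2. Filled circles are the gene table with 95% exact Poisson intervals for the counted reads, open diamonds are the second quantification, and the lines mark 1 and 10 TPM. Socs3 lies above 200 TPM in both libraries by the gene table, and every other member lies under 13 TPM.

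Socs3 (ENSMUSG00000053113.3, chr11:117966079-117970047 on the minus strand, mm10) had 214 TPM in replicate 1 and 233 TPM in replicate 2. It ranked 664 and 622 among protein-coding genes, above 97.0% and 97.2% of them. These values came from 15195 and 11229 reads. The second quantification gave 173 and 210 TPM, lower than the gene table in both libraries. Socs3 thus made up most of the family's messenger RNA: the 8 genes summed to 254 TPM in replicate 1 and 272 TPM in replicate 2, and Socs3 held 84.3% and 85.7% of these sums. Without correction for length it held 72.0% of the family's reads in replicate 1 (95% exact binomial interval 71.4% to 72.6%) and 75.7% in replicate 2 (75.0% to 76.4%). The other 7 genes together came to 39.8 and 39.0 TPM, so that by the gene table their summed levels differed little between the libraries. In the second quantification they came to 35.0 TPM in replicate 1 and 38.3 TPM in replicate 2.

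Socs1, Cish and Socs2 had the lowest mean levels of the family. Socs1 (ENSMUSG00000038037.5, chr16:10782240-10785536, minus strand) had 3.71 TPM in replicate 1 (95% Poisson interval 3.30 to 4.16, 294 reads) and 1.83 TPM in replicate 2 (1.49 to 2.23, 98 reads). Its level was higher in replicate 1 and the counting intervals did not overlap. Cish (ENSMUSG00000032578.7, chr9:107296026-107302784, plus strand), a STAT5 target that acts on receptors signalling through STAT5, had 1.13 TPM in replicate 1 (0.91 to 1.39, 91 reads) and 1.83 TPM in replicate 2 (1.5 to 2.22, 104 reads). For Cish the order was the opposite, higher in replicate 2, again without overlap of the counting intervals. The deposited gene table also gives interval bounds of its own. For Cish these overlapped, at 1.03 to 2.64 TPM in replicate 1 and 1.68 to 4.81 TPM in replicate 2. For Socs1 they did not, at 3.21 to 4.04 and 1.43 to 2.13 TPM. Gm17040 and Gm17041, which lie on the other strand across Cish, had 0 reads in both libraries, a count that allows levels of up to 0.0662 and 0.0935 CPM. Socs2 (ENSMUSG00000020027.18, chr10:95385362-95417180, minus strand), best known for restraining growth hormone signalling, had 0.43 TPM in replicate 1 from 23 reads and 0.62 TPM in replicate 2 from 11 reads. Posterior mean TPM, another estimate in the deposited gene table, were 1.70 and 2.17 for Socs2, which would put all 8 members at 1 TPM or more. The deposited bounds for Socs2, 0.88 to 2.65 and 1.03 to 3.53 TPM, lay above its TPM of 0.43 and 0.62, so its level is uncertain. The counting intervals of Socs2, 0.27 to 0.65 and 0.31 to 1.11 TPM, overlapped, and no difference between the libraries was detectable at this depth.

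Socs4 to Socs7 code for proteins of 436 to 579 amino acids, against 198 to 257 for the other 4 members, and are known mainly from growth factor receptor and adaptor signalling. Socs6, on chromosome 18, whose protein binds the KIT receptor, had 12.2 TPM in replicate 1 (1313 reads) and 12.0 TPM in replicate 2 (662 reads). Socs7 (ENSMUSG00000038485.5, chr11:97362551-97398542, plus strand), whose protein binds the adaptor NCK, had 8.79 and 10.7 TPM (1796 and 1275 reads). Socs4 (ENSMUSG00000048379.9, chr14:47276931-47296102, plus strand), linked to turnover of the EGF receptor, had 9.19 and 8.39 TPM (1903 and 1176 reads). Socs5 (ENSMUSG00000037104.9, chr17:87107679-87137839, plus strand), also linked to the EGF receptor, had 4.32 and 3.65 TPM (487 and 279 reads). These 4 genes therefore formed the middle of the family, each above Socs1, Cish and Socs2 in mean TPM. Socs1 in replicate 1 lay inside the range of Socs5, however.

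Neighbours in the order were set apart only in part. The values of the 2 libraries did not overlap in 4 of the 7 neighbouring pairs, which were Socs3 over Socs6, Socs6 over Socs7, Socs4 over Socs5, and Cish over Socs2. Socs3 exceeded Socs6, the next in order, by 17.5-fold in replicate 1 and 19.5-fold in replicate 2. The pairs Socs7 and Socs4, Socs5 and Socs1, and Socs1 and Cish overlapped. In the second quantification the order was the same and 6 of 7 pairs were separated, with Socs7 and Socs4 still overlapping. Mean levels were 223 ± 13.5 TPM for Socs3, 12.1 ± 0.17 for Socs6, 9.75 ± 1.36 for Socs7 and 8.79 ± 0.57 for Socs4 (SD, n = 2 libraries). They were 3.98 ± 0.47 TPM for Socs5, 2.77 ± 1.33 for Socs1, 1.48 ± 0.49 for Cish and 0.53 ± 0.13 for Socs2 (SD, n = 2 libraries). The SD was 48.0% of the mean for Socs1 and 33.4% for Cish, against 6.05% for Socs3.

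Promoter sequence was read for the members present in the RefSeq promoter table (GRCm38.p6), which were Socs1, Socs3, Socs4 and Cish. Each sequence runs from 250 bases before to 50 bases after the RefSeq start. Motifs were searched on both strands: TTCNNNGAA, bound by STAT factors, GGG and CC with any 5 bases between them for NF-kB, TGANTCA for AP-1, and a pair of GAAA with any 2 bases between them for interferon regulatory factors (IRF), the last added after the data were seen. These letters were found in 8.30%, 50.8%, 7.81% and 3.44% of all 32851 promoters in the table. Shown are the promoter of the most abundant member and those of the 2 members that differed most between the libraries, with STAT and IRF matches in capitals.
Socs3, chr11:117969317-117969616, minus strand: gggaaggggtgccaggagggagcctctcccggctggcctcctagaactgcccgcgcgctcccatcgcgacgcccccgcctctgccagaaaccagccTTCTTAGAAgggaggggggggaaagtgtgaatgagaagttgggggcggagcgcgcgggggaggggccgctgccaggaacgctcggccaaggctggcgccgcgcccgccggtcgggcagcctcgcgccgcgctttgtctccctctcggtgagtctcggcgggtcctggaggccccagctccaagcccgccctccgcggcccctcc
Socs1, chr16:10785487-10785786, minus strand: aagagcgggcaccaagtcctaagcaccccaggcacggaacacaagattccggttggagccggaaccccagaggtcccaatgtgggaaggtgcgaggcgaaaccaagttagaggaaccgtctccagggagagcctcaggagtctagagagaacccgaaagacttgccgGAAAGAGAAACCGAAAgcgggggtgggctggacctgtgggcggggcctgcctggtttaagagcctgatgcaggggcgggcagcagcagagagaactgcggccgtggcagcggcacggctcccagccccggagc
Cish, chr9:107296409-107296708, plus strand: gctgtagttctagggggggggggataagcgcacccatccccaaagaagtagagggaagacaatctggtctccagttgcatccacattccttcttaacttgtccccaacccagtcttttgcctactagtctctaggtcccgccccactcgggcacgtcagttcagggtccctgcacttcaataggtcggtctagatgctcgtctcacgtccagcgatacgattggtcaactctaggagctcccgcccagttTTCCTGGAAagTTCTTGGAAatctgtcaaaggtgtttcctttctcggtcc

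The Socs3 window held 1 STAT match, TTCTTAGAA, 154 bases before the RefSeq start. The Cish window held 2, TTCCTGGAA from the start itself and TTCTTGGAA from 11 bases after it. Socs1 had no STAT match in this window and instead 2 IRF matches, GAAAGAGAAA and GAAACCGAAA, at 83 and 77 bases before the start, which share 4 bases. NF-kB letters occurred 3 times in Socs1, with an overlap between a pair of them, and once each in Socs3, Socs4 and Cish. The Socs4 window (chr14:47276670-47276969) held neither STAT nor IRF letters, and none of the 4 windows held the AP-1 letters. GC content was 73.3% for Socs3, 70.7% for Socs4, 63.3% for Socs1 and 53.3% for Cish, where the median promoter had 52.7%. The RefSeq start of Cish lay 633 bases downstream of the start of the leading GENCODE transcript, so its window is inside that gene model. That of Socs3 lay 180 bases upstream of its leading transcript's start, that of Socs4 differed by 11 bases, and that of Socs1 was the same. These matches describe letters and not bound sites.

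The annotation gives 40 transcripts for the 8 genes, of which 24 are protein coding and 20 held at least 5% of their gene's TPM in a library. Socs3 and Socs4 were each carried by 1 full-length coding transcript. Socs3-201, which codes for 225 amino acids in 2 exons, held 99.9% of the gene's TPM in replicate 1 and 99.7% in replicate 2. Socs4-201, with 436 codons, held 100% in both. Socs1 divided between Socs1-201, with 81.5% and 94.6% of TPM, and Socs1-202, with 18.5% and 5.36%, and both code for 212 amino acids. The second quantification gave Socs1-202 23.2% in replicate 1 and 39.8% in replicate 2, the opposite order, so the division between these overlapping models was not settled.

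**Figure D2:**
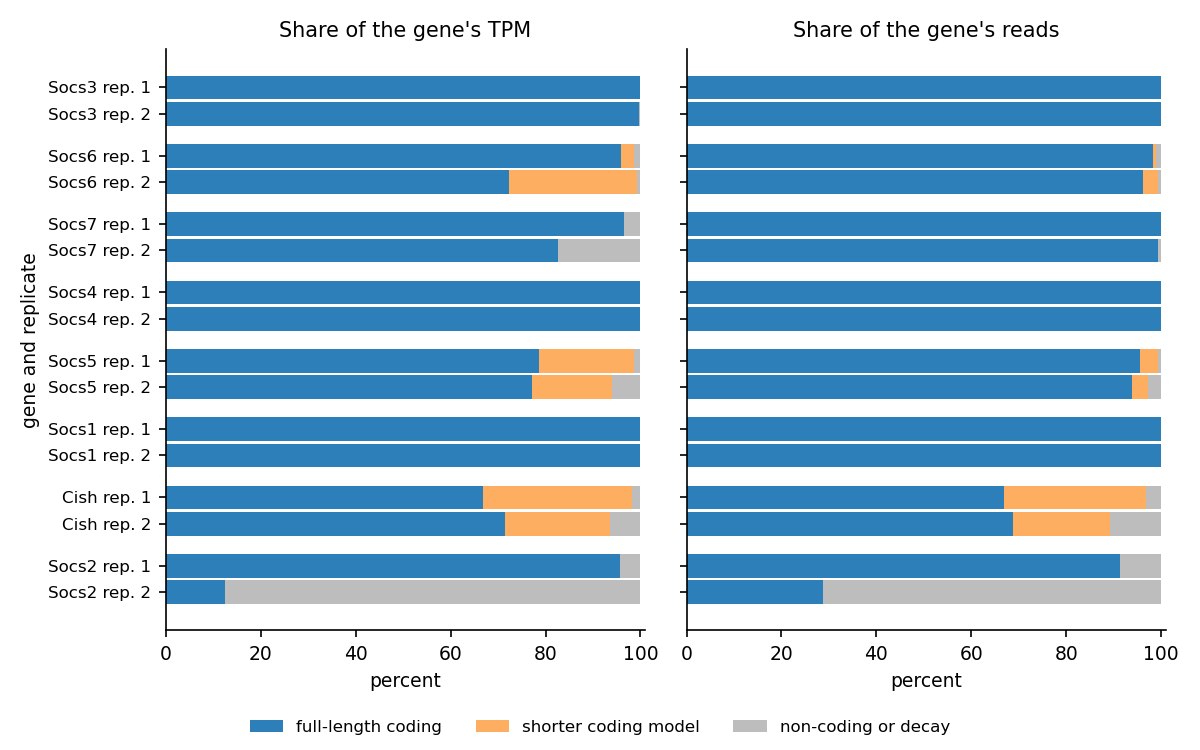
Share of each gene's TPM (left) and of its reads (right) in full-length coding transcripts, shorter coding models and non-coding or decay transcripts, as stacked bars from 0 to 100%, with replicate 1 above replicate 2. For Socs6 in replicate 2, shorter coding models held 27.0% of TPM from 3.10% of reads.

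Short transcript models with few reads took large shares of TPM in other members. Socs6-208, a model of 453 bases whose 3′ end is annotated as incomplete, had 0 reads in replicate 1 and 9.88 expected reads in replicate 2, yet held 21.2% of Socs6 TPM in replicate 2. The full-length Socs6 transcripts, Socs6-203, Socs6-202 and Socs6-201, all coding for 533 amino acids, held 98.2% and 96.1% of the reads. Among those 3, Socs6-203 led with 35.5% and 31.4% of TPM, followed by Socs6-202 with 32.2% and 20.5% and Socs6-201, the longest, with 28.2% and 20.3%. Socs6-205, another incomplete model, held 2.81% and 5.76%. Socs7-202, a non-coding model of 506 bases, held 3.38% of Socs7 TPM in replicate 1 and 17.4% in replicate 2, from 2.12 and 9.25 expected reads. Its full-length partner Socs7-201, with 579 codons, held 99.9% and 99.3% of the reads. Socs5-203, an incomplete model of 978 bases, held 20.2% and 16.9% of Socs5 TPM from 18.99 and 9.22 expected reads. Socs5-202, a non-coding model, held 1.27% and 5.91%, and the full-length Socs5-201, with 536 codons, held 78.5% and 77.2%.

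Socs2 differed from these, since in replicate 2 a short model held most of its few reads as well as most of its TPM. Socs2-201, coding for 198 amino acids, held 73.0% of Socs2 TPM in replicate 1 and 12.4% in replicate 2. Socs2-207, a non-coding model of 874 bases, held 0% in replicate 1 and 85.4% in replicate 2, where it had 6.70 expected reads. Those were 60.9% of the gene's reads in replicate 2. Socs2-202, a short model with the full coding sequence, held 22.7% and 0%. With 23 and 11 reads for the whole gene, the leading transcript of Socs2 differed between the libraries, in the second quantification too. Cish did not show the pattern of Socs5, Socs6 and Socs7 either: its transcripts took like shares of TPM and of reads. Cish-201, with 257 codons, held 66.9% of Cish TPM in replicate 1 and 71.4% in replicate 2. Cish-204 has 62 codons and held 31.2% and 22.1% of TPM and 29.9% and 20.4% of reads, but 5.11% and 3.78% of TPM in the second quantification. Cish-202, which is non-coding, held 1.86% and 6.48%.

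Counting only full-length coding transcripts, a summary chosen after the transcript shares were seen, left Socs3 at 213 TPM in replicate 1 and 232 TPM in replicate 2. Socs6 came to 11.7 and 8.63 TPM, so that Socs3 alone stayed at 10 TPM or more in both libraries. Socs4 and Socs7 changed places, with means of 8.79 ± 0.57 and 8.67 ± 0.25 TPM (SD, n = 2). Socs5 came to 3.39 and 2.82 TPM, Cish to 0.76 and 1.31 TPM, and Socs2 to 0.41 and 0.08 TPM. Full-length Socs1 stayed at 3.72 and 1.84 TPM.

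The difference between the libraries was taken as the log2 ratio of expected counts, replicate 1 over replicate 2, with library sizes scaled by TMM (trimmed mean of M values). With 1 library a side this has no test. All 8 members passed the minimum mean of 10 reads, and 1 of them, Socs1, was 2-fold or more apart, where 11.3% of the 12544 genes tested were. With DESeq2 size factors (0.99) and in the second quantification (0.97) Socs1 fell short of 2-fold and no member was called. The median member ratio was 0.18 and the median over all genes 0.02. In size, the median ratio was 0.32 for members and 0.36 for all genes. Of the members, 5 were higher in replicate 1 and 3 in replicate 2, where 51.2% of all genes were higher in replicate 1. By the ratio of TPM 4 of 8 were.

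**Figure D3:**
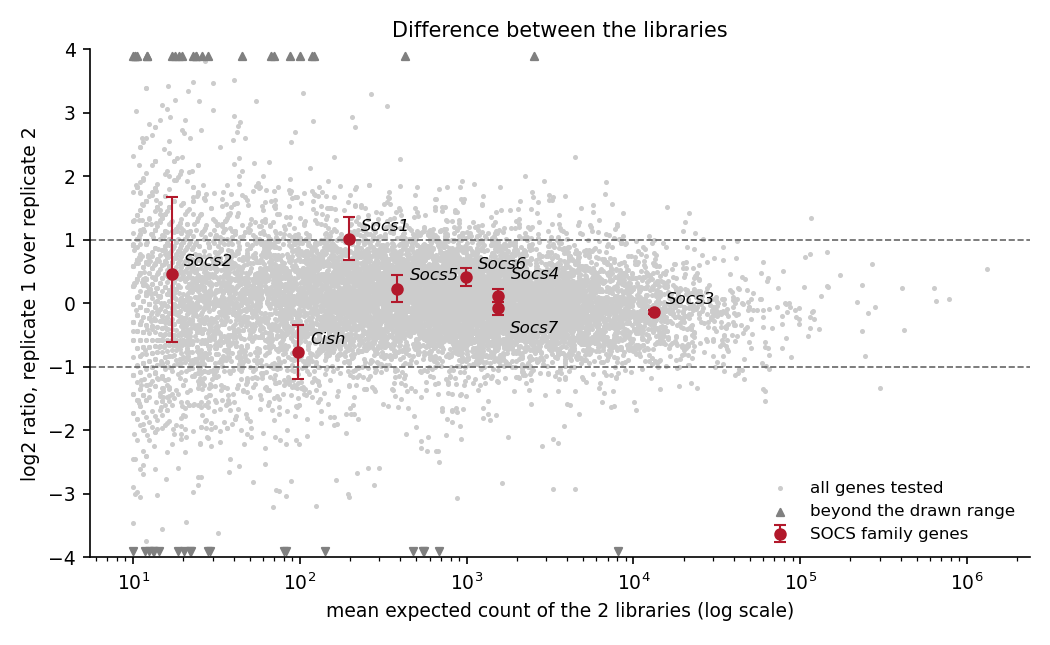
The log2 ratio of replicate 1 over replicate 2 against the mean expected count of the 2 libraries (log axis), for all 12544 genes tested (grey) and the family members (red, with 95% counting intervals). Dashed lines mark 2-fold, and triangles at the edges stand for the 44 genes beyond the drawn range. Socs1 lies at 1.01 and Cish at -0.76, and the other 6 members lie between -0.14 and 0.46.

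Socs1 had a log2 ratio of 1.01 (95% counting interval 0.68 to 1.36), which is 2.01-fold higher in replicate 1. A larger ratio in size was found for 11.1% of all genes tested and for 10.03% of the 2384 genes with a like mean count (within 2-fold). Cish had a ratio of -0.76 (-1.19 to -0.34), and 26.0% of the 1871 genes of like count had a larger one. By the counting intervals Socs1 and Cish thus lay apart in opposite directions, but within what many genes of their abundance showed. For Cish the bounds of the deposited gene table overlapped between the libraries, so its difference is less firm than that of Socs1. Of 8 neutrophil markers tested, 5 were 2-fold or more higher in replicate 1 and none in replicate 2. Among all genes tested the shares were 5.95% and 5.34%. Higher in replicate 1 to that degree were 3 of 4 erythroid and platelet markers, with 1 higher in replicate 2. So were 2 of 2 NK cell, 3 of 6 stromal and 2 of 6 dendritic cell markers, with none higher in replicate 2. In the T cell list it was 1 of 5 and in the B cell list 1 of 3, again with none higher in replicate 2. Of 2 mast cell and basophil markers, none was higher in replicate 1 and 1 in replicate 2. The part of these cells in the difference of Socs1 was not tested. Socs6 had a ratio of 0.42 (0.28 to 0.55), Socs5 0.23 (0.02 to 0.45), Socs4 0.12 (0.02 to 0.23), and Socs3 -0.14 (-0.17 to -0.10). These 4 were at most 1.33-fold apart, though their counting intervals did not hold 0. For Socs4 and Socs5 this rests on the scaling, since the lower bounds were only 0.017 and 0.016. With DESeq2 size factors their ratios fell from 0.122 to 0.102 and from 0.231 to 0.211. The intervals of Socs7, -0.18 to 0.03, and of Socs2, -0.60 to 1.68, held 0.

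Ratios of TPM gave another picture for 3 members with short models. For Socs6 the log2 ratio of TPM was 0.03 and that of counts 0.42, for Socs7 -0.29 and -0.08, and for Socs2 -0.53 and 0.46. Socs2 was thus higher in replicate 2 by TPM and higher in replicate 1 by counts. The effective length that converts reads into TPM was 3430 bases in replicate 1 and 2611 bases in replicate 2 for Socs6. It was 6510 and 5611 bases for Socs7, and 1712 and 841 bases for Socs2. The size of the gap between both ratios was taken after subtracting its median over all genes tested, 0.015. Among those genes, 9.997% had a larger gap than Socs6, and 1.95% a larger gap than Socs2. For Socs1, Socs3, Socs4 and Socs5 the gap so taken was under 0.01, against a median size of 0.04.

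The genes on which SOCS proteins act were present at very different levels. Of 10 JAK kinases and STAT factors examined, 9 were at 10 TPM or more in both libraries and none was under 1 TPM in both. Among all 21951 protein-coding genes, 27.3% were at 10 TPM or more in both and 11737 were under 1 TPM in both. Stat2, which carries type I interferon signals, had 349 TPM in replicate 1 and 296 TPM in replicate 2. Stat6, which acts downstream of IL-4, had 107 and 125 TPM, and Jak1, a kinase bound by SOCS1, had 94.98 and 118.9 TPM. Stat3, which acts downstream of gp130 and the IL-10 receptor, had 92.4 and 106 TPM. Per length, Stat2 thus lay above Socs3 in both libraries, and Stat6, Jak1 and Stat3 lay below it.

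**Figure D4:**
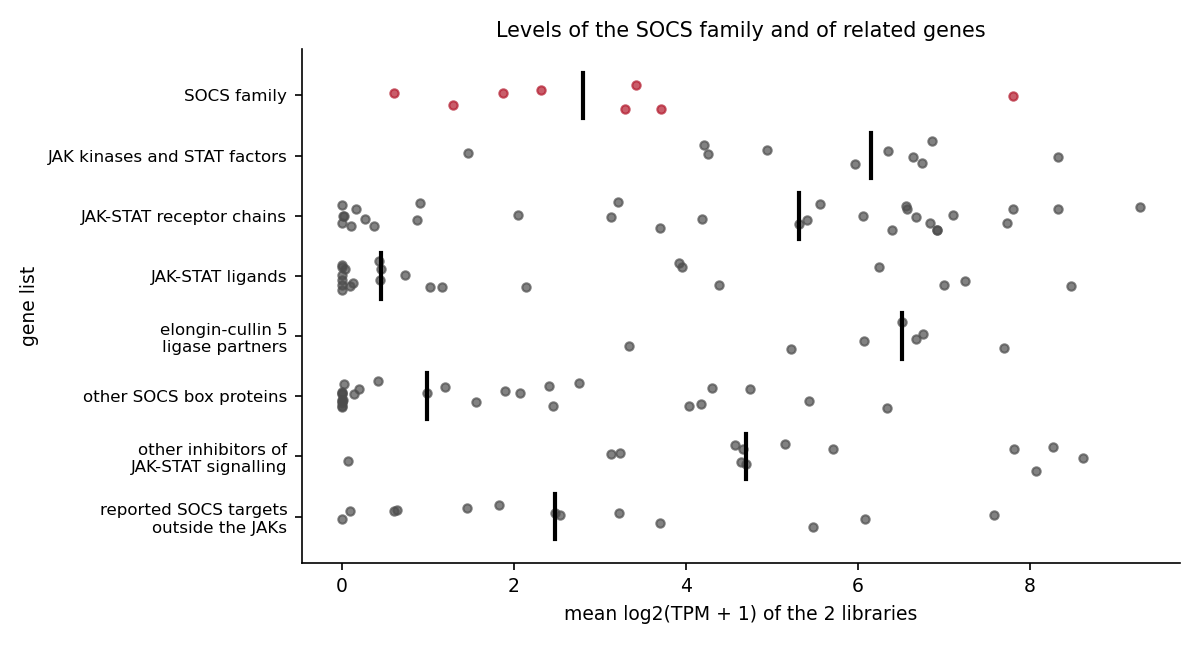
Mean log2(TPM + 1) of the 2 libraries for each gene of the SOCS family (red) and of 7 lists of related genes (grey), with a black bar at each median. The family's median is 2.80, against 6.16 for JAK kinases and STAT factors and 0.46 for JAK-STAT ligands.

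Receptor chains that signal through JAK kinases were at 10 TPM or more in 17 of 31 cases and under 1 TPM in both libraries in 8. The highest were Il2rg, the common gamma chain, at 482 TPM in replicate 1 and 798 TPM in replicate 2, and Il10rb, an IL-10 receptor chain, with 310 and 329 TPM. They were followed by Csf2rb, the shared beta chain for GM-CSF and related cytokines, with 129 and 349 TPM but a log2 count ratio of -0.40, and Ifnar2, a type I interferon receptor chain, with 193 and 256 TPM. Il6st, which codes for gp130, the receptor chain bound by SOCS3, had 17.1 and 17.4 TPM. Growth hormone and prolactin receptors, known targets of SOCS2 and CIS, were near 0, with Ghr at 0.03 and 0.01 TPM and Prlr listed at 0 in both. Il6st, Ghr and Prlr were picked for their tie to the members after the values were seen.

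Of 23 cytokines that use these receptors, 7 were at 10 TPM or more in both libraries and 13 under 1 TPM in both. Both shares are near those of all protein-coding genes, 27.3% and 11737 of 21951. Ebi3, a subunit of IL-27, had 332 TPM in replicate 1 and 378 TPM in replicate 2, and Il27, the other IL-27 subunit, had 119 and 135 TPM. Il15 had 154 and 148 TPM, and Il12b, the shared subunit of IL-12 and IL-23, had 34.9 and 159 TPM. Of 13 ligands tested, 1 was 2-fold or more higher in replicate 1 and 6 in replicate 2, where 5.95% and 5.34% of all genes were. Il6, which is known to induce Socs3, was at 10.7 and 36.3 TPM (log2 count ratio -1.77), while Socs3 differed by -0.14 on the same scale. Il10, another inducer, was at 13.6 and 15.5 TPM. Il6 and Il10 were likewise picked after their values were seen.

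The machinery that the SOCS box recruits was present throughout. Of 7 elongin and cullin 5 partners, 6 were at 10 TPM or more in both libraries and none was under 1 TPM. Elob and Eloc, the elongins that bind the SOCS box, had 285 and 139 TPM in replicate 1 and 151 and 59.0 TPM in replicate 2. Nedd8, which is attached to cullins to activate them, had 134 TPM in replicate 1 and 85.4 TPM in replicate 2, and Ube2f, the NEDD8 enzyme for cullin 5, had 83.2 and 123 TPM. Cul5 itself, named after its value was seen, was the lowest of the list, at 8.97 and 9.22 TPM, close to Socs4 and Socs7 per length. Of 27 other SOCS box proteins, which bind the same kind of ligase partners, 6 were at 10 TPM or more and 13 under 1 TPM in both. These shares too are near those of all protein-coding genes. Wsb2 had 75.6 and 84.5 TPM and Wsb1 44.7 and 40.0 TPM. Asb6 had 20.8 and 32.2 TPM and Spsb2, whose protein targets inducible nitric oxide synthase, 27.6 and 10.5 TPM. None of these 27 genes reached the level of Socs3.

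Other inhibitors of JAK-STAT signalling were mostly well above the SOCS members other than Socs3. Of 13, 10 were at 10 TPM or more in both libraries and 1, Sla2 (named after its value was seen), was under 1 TPM. Ptpn6, the phosphatase SHP-1, had 378 TPM in replicate 1 and 408 TPM in replicate 2. Usp18, which limits type I interferon receptor signalling, had 310 and 230 TPM, and Ptprc, the phosphatase CD45, had 228 and 221 TPM. Ptpn1, the phosphatase PTP1B, had 175 and 538 TPM, although its count ratio was only -0.24 on the log2 scale, so its TPM and counts also diverged. In mean TPM, Ptpn6, Usp18, Ptprc and Ptpn1 all lay above Socs3, though Usp18 and Ptprc in replicate 2 and Ptpn1 in replicate 1 were below the Socs3 value of the same library.

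Reported targets of SOCS proteins outside the JAK kinases were at 10 TPM or more in 4 of 13 cases. Rela, a subunit of NF-kB that SOCS1 has been reported to bind, had 105 TPM in replicate 1 and 346 TPM in replicate 2, with a log2 count ratio of -0.84. Nck1, an adaptor bound by SOCS7, had 58.5 and 76.5 TPM, and Pik3r1, a regulatory subunit of PI3-kinase, had 25.6 and 74.1 TPM. Cd33, a sialic acid receptor reported as a target of SOCS3, had 10.9 and 13.3 TPM. The share at 10 TPM or more is near the 27.3% of all protein-coding genes. Under 1 TPM in both libraries were Kit, Egfr, Igf1r and Irs1. Egfr, the receptor linked to Socs4 and Socs5, had 0.06 and 0.07 TPM, and Kit, linked to Socs6, had 0.35 and 0.80 TPM. The insulin receptor, Insr, had 4.36 and 4.82 TPM. Kit, Egfr, Igf1r, Irs1 and Insr were named after their values were seen.

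The 3′ untranslated regions of the leading coding transcripts differed in AU-rich letters, which are known from short-lived messages. The pentamer ATTTA and the longer TATTTAT, which contains it, were counted on the transcript strand. Socs3 had 4 and 2 copies in 1474 bases, and Cish had 3 and 3 in 1087 bases. Socs1 had neither in 1990 bases. Socs2 had 2 and 1 copies, Socs5 4 and 1, and Socs4 17 and 1 in 5182 bases. Socs6 had 1 and 0, and Socs7 5 and 0. The Socs6 count covers only the 693 bases of Socs6-203, which led by TPM. The longer Socs6-201, of 6036 bases, held more of the reads, 47.3% and 44.7% against 26.2% and 30.6%. Its region was not read, so the letters of Socs6 are known only in part. TATTTAT was thus present in the leading coding transcript of 5 of the 8 members, where 26.5% of 9476 protein-coding genes at 1 TPM or more held it. Per kilobase, ATTTA occurred 3.28 times in Socs4, 2.76 in Cish, 2.71 in Socs3, 1.72 in Socs2, 1.54 in Socs5, 1.44 in Socs6, 0.96 in Socs7 and 0 in Socs1, against a median of 1.24 over those genes. The TATTTAT counts were not adjusted for the length of the region, whose median over those genes was 890 bases.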

How the data were processed

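PolyA plus RNA was sequenced in 2 libraries of 1 group. Genome mm10 and annotation GENCODE M21 are named in the notes that accompany the deposited files, which say that reads were aligned to the transcriptome for the gene table and the main transcript table. The gene table, as deposited, holds expected counts, TPM and FPKM, with posterior mean TPM and interval bounds, treated as a signal that is never negative. The main transcript table, as deposited, adds each transcript's percent of its gene's TPM. Another deposited table of transcripts, with estimated counts and TPM, was made from reads and an index and was summed to genes. Not given in the sources used here are the programs and whether strand was used in counting. Rows that name no annotated gene held 0.0921% and 0.0845% of expected counts and were left out of library sizes.

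Levels are the deposited TPM with the mean and SD of 2 libraries. Ratios used expected counts with a prior of 0.5 and TMM scaling in edgeR 4.0.16 (R 4.3.3), for genes with a mean expected count of 10 or more, and this step was tested on simulated data. DESeq2 1.42.0 size factors were an alternative. Intervals and the floor of 3 reads cover counting error only. With 1 group and 1 library a side, no p-value was computed. Named were all 8 members, their transcripts at 5% or more of TPM in a library, and the 4 genes of highest mean TPM in each related list. For other cell types the highest gene was named where a list had one at 10 TPM or more in both libraries. Others named were picked after their values were seen. The members and lists were chosen with earlier results of these data known. Protein sequences were not used here, so the planned comparison of protein features was not run. The IRF motif, posterior mean TPM and full-length transcript sums were added after the data were seen. In the list of JAK kinases and STAT factors, 1 gene is not reported here.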

Additional observations from a re-analysis of the deposited data

How the results depend on the processing

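Of 146 values recomputed under alternatives, 33 moved past the limit set for them. The limit was 1.5 times for counts of members, the SD of the 2 libraries for levels and 0.1 on the log2 scale for ratios. A member called 2-fold apart also counted as moved where its ratio fell short of 2-fold. This was so for Socs1 with DESeq2 size factors and in the second quantification. Some values could not move. Leaving out a library shifts a member's mean level by less than the SD, and dropping the count filter changes no member's ratio. The ratio of Socs2 changed sign, from 0.46 by counts to -0.52 by TPM. The order by level kept 6 of 8 places with full-length transcripts. In mean level, the second quantification gave 192 TPM for Socs3, 7.61 for Socs4 and 11.8 for Socs6. FPKM, which is on another scale than TPM, gave 0.355 for Socs2, 151 for Socs3, 5.96 for Socs4, 2.70 for Socs5, 8.17 for Socs6 and 6.58 for Socs7. Full-length coding transcripts alone gave 0.245 TPM for Socs2, 3.11 for Socs5 and 10.2 for Socs6. Posterior mean TPM gave 1.94 for Socs2, 12.7 for Socs6 and 2.43 for Cish. The count of members at 10 TPM or more in both libraries, 2 as reported, was 1 with FPKM, 1 with full-length transcripts, 4 at a threshold of 5 TPM and 1 at 20 TPM. It ranged from 2 to 3 when either library was left out. The count at 1 TPM or more was 7 with either library left out, 6 with FPKM, with full-length transcripts and in the second quantification, where Cish had 0.88 TPM in replicate 1, and 8 with posterior means. The median log2 level was 2.67 in the second quantification, 2.34 with FPKM, 2.65 with full-length transcripts, 2.59 with a pseudocount of 0.1 and 3.29 over the members at 1 TPM or more. It ranged from 2.72 to 2.85 with a library left out. The 2-fold difference of Socs1 rests on the threshold: the count of members 2-fold apart was 0 with DESeq2 size factors, where Socs1 was at 0.99, and 0 in the second quantification, where it was at 0.97. The median member ratio, 0.18 as reported, changed sign to -0.047 with the ratio of TPM. The effective lengths of Socs2, Socs6 and Socs7 differed between the libraries. The part of short transcript models in the change of sign was not tested.

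No paired analysis was possible because the 2 libraries form 1 group, so that no groups share replicate numbers. Depth limits Socs2, with 23 and 11 reads, most. Its level, its leading transcript and its order between the libraries are uncertain. The spread rests on 2 libraries with 1 donor identifier. The planned comparison of proteins was not run.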
